A study of Mus musculus with 22 samples.

Results

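The subcortical maternal complex genes were followed through the RNA-seq of fully grown germinal vesicle (GV) oocytes that lacked RNA interference (RNAi), carried catalytically dead MILI, or both. The members were chosen by symbol and mapped through the GENCODE gene IDs of the count table. They are 8 of the 52636 genes in that table: the core genes Nlrp5, Ooep, Tle6 and Khdc3, and the associated genes Padi6, Nlrp2, Nlrp4f and Zbed3. All 8 passed the filter on low counts in every fit. The question was how much the messages of this complex, which are stored for the early embryo, differ between oocytes with and without RNAi or catalytically active MILI.

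The subcortical maternal complex is a large protein assembly that builds up in the growing oocyte and lies under the plasma membrane of the oocyte and early embryo. Its subunits are maternal-effect proteins: an embryo from a mother without NLRP5, OOEP or TLE6 arrests in early cleavage, although the oocyte itself grows and ovulates. Their messages are made during oocyte growth, together with those of the zona pellucida and of the secreted oocyte factors. RNAi is unusually active in mouse oocytes because a retrotransposon promoter inside Dicer drives a short isoform that makes small interfering RNAs (siRNAs) efficiently, while MILI is a PIWI protein that cuts retrotransposon RNA with the help of piRNAs.

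The single-end run (50 nt reads) held wild type oocytes (n = 3), one Dicer dMT/WT library, Dicer dMT/dMT oocytes (n = 4) and Dicer SOM/SOM oocytes (n = 3), with no age in the labels. The dMT allele lacks the MT retrotransposon promoter of the short Dicer isoform, and a second retrotransposon promoter can still give some of it. The SOM allele lacks the introns that hold these promoters, carries an HA tag, gives only full-length Dicer, and descends from 1 embryonic stem cell clone. The paired-end run (75 nt reads) crossed this allele with the Mili-DAH allele. Its double mutants were homozygous for both (DAH/DAH and SOM/SOM, from females of 40, 35, 11 and 11 weeks). Its RNAi mutants were SOM/SOM but DAH/WT (17 and 13 weeks), and its lone piRNA mutant was DAH/DAH but SOM/WT (16 weeks). The controls were heterozygous at both loci (36, 38, 10 and 17 weeks). Every paired-end group, the controls included, thus carried at least one DAH and one SOM allele, and the DAH allele changes the catalytic triad of MILI and leaves the protein in place. All animals were C57BL/6, and each library was made from 25 pooled oocytes. The study speaks of biological replicates in both runs, and in the paired-end run the differing ages show separate females, apart from the double mutants of 11 weeks, whose labels do not part them. The labels give no such detail for the single-end run, where the p-values measure the spread between these libraries. The methods give a narrower range of ages than the labels and say that the oocyte donors were superovulated or not stimulated, without saying which library came from which. Counting per gene cannot part fewer transcripts per oocyte from a change in the rest of the RNA pool.

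Dicer1 itself followed the labels. Its level, as CPM (counts scaled to library size) after scaling by the trimmed mean of M values (TMM), was 992 to 1052 in wild type, 426 to 533 in dMT/dMT and 39.6 to 54.5 in SOM/SOM. Among the paired-end libraries it was 515 to 756 in the heterozygous controls, 52.5 to 61.5 in the double mutants and 53.5 to 61.9 in the RNAi mutants. Library totals ran from 6468380 reads in SOM/SOM replicate 3 to 90713013 in the dMT/WT library. The 7 oocyte markers (among them Gdf9, Bmp15 and Zp3) summed to between 8787 and 12367 CPM in all 22 libraries, against 35.5 to 111 CPM for 9 granulosa and cumulus genes. The blood list summed to 72.3 to 148 CPM, nearly all of it from Ighm and Ms4a1, while the 4 hemoglobin genes were at 3 counts or fewer in 21 of the 22 libraries. In the paired-end run 6 libraries held over 1000 CPM of Gm42418, a gene that overlaps the ribosomal RNA repeat, and 5 held 297 to 550 CPM. Both RNAi mutants lay in the former set, the piRNA mutant in the latter, and the double mutants and controls were split evenly. All single-end libraries held over 1000 CPM of it, with SOM/SOM replicates 1 and 3 highest at 12855 and 16460.

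The start-site windows of the 4 core genes are printed first, to show the annotated sequence around the start of the genes that encode the scaffold of the complex. No measurement of the start sites used in oocytes was analysed here. Each runs from 250 bases before the RefSeq start site to 50 after it, in GRCm38.p6, written 5′ to 3′ on the strand of the gene. Capitals mark E-boxes (CANNTG, which reads the same on both strands), the hexamer bound by helix-loop-helix factors such as the oocyte factor FIGLA.
Nlrp5 (chr7:23385639-23385938, plus strand): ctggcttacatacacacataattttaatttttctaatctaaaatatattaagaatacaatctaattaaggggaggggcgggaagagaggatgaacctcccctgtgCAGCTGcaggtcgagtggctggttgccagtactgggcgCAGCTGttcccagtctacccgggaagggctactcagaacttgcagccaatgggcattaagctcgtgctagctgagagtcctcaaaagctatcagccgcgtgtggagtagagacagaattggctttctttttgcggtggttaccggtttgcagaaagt
Ooep (chr9:78378539-78378838, minus strand): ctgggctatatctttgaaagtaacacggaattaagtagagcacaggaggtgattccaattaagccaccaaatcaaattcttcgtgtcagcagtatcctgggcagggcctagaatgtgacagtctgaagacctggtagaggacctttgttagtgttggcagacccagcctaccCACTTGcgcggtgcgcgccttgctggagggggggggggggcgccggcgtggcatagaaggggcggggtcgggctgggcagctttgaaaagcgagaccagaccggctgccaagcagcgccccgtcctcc
Tle6 (chr10:81600851-81601150, minus strand): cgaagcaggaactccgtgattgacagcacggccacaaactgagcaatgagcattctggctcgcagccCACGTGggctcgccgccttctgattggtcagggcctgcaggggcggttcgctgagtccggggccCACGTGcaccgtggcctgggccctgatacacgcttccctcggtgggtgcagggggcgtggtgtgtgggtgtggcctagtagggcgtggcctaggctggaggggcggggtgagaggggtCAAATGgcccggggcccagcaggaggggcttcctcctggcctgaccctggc
Khdc3 (chr9:73102148-73102447, plus strand): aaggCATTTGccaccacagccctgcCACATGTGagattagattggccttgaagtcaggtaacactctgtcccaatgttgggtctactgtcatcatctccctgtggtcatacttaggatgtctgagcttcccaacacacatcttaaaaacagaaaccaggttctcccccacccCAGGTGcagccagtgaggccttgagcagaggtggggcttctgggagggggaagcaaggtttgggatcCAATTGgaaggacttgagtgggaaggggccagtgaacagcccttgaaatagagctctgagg
In these windows Nlrp5 had 2 E-boxes, Ooep 1, Tle6 3 and Khdc3 5. Among the associated genes Padi6 had 2, Nlrp4f and Zbed3 had 3 each, and Nlrp2 had none. An E-box was thus present in 7 of the 8 windows and in 72.3% of all 32851 windows in the RefSeq table. The letters TAATTG on either strand, an element bound by the oocyte factor NOBOX, occurred in the windows of Ooep and Padi6 and in 8.0% of all windows. None of these 8 windows held TATAAA on either strand, against 13.6% of all windows. For each member the window nearest the 5′ end of the gene in the count table was used, while the shares over the RefSeq table count every window of a gene. Nlrp5, Tle6 and Zbed3 have further RefSeq start sites, and TATAAA occurred in the second window of Nlrp5 and in 1 further window of Zbed3. These are matches of letters only. The RefSeq start site of Ooep lies 137 bases inside the 5′ end that the count table gives for the gene, and that of Nlrp4f 252 bases inside.

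The members were among the most abundant messages of the oocyte, with a wide range between them. Compared per kilobase of exon (RPKM from TMM-scaled counts), wild type oocytes held 4929 RPKM ± 254 (SD, n = 3) of Zbed3, which encodes a zinc finger partner of Axin found in the complex. This was rank 5 of 52636 genes. Padi6, a peptidylarginine deiminase family member needed for the cytoplasmic lattices of the oocyte, followed at 728 RPKM ± 62.5, or 6.77 times less. Next came Ooep, a small KH-domain protein (516 ± 7.61), and Nlrp5, the NLR-family scaffold also called MATER (411 ± 25.6). Tle6, a Groucho-related protein that links the core subunits, stood at 263 ± 19.7. Nlrp2 (148 ± 2.61) and Nlrp4f (132 ± 8.61), further NLR-family proteins, came below it, and Khdc3, the KH-domain protein also called FILIA, was lowest at 80.6 ± 14.4, still rank 762. In wild type no neighbours in this order overlapped between libraries as counted, the closest pair being Nlrp2 and Nlrp4f at a ratio of 1.12. Khdc3 shares 790 exon bases with Gm20509, and reads there were divided between the genes. Gm20509 held 73.8 CPM in wild type beside 135 CPM of Khdc3. The place of Khdc3 and its gap to Nlrp4f may thus depend on how these reads were divided.

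In the heterozygous controls of the paired-end run the order began and ended alike. Zbed3 was at 3917 RPKM ± 416 (SD, n = 4) and rank 5, and Padi6 at 618 ± 44.2. Khdc3 was at the bottom at 50.7 ± 13.6, rank 1320 by RPKM and 2509 by CPM. Nlrp5 (451 ± 40.9) stood above Ooep (322 ± 94.6) here, and the libraries of these neighbours overlapped. Tle6, Nlrp4f and Nlrp2 overlapped as well, at 184 ± 13.9, 167 ± 21.4 and 157 ± 11.3 RPKM. The runs differ in read length, layout, genotype of the controls and normalization, so these values stand side by side without a test.

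**Figure D1:**
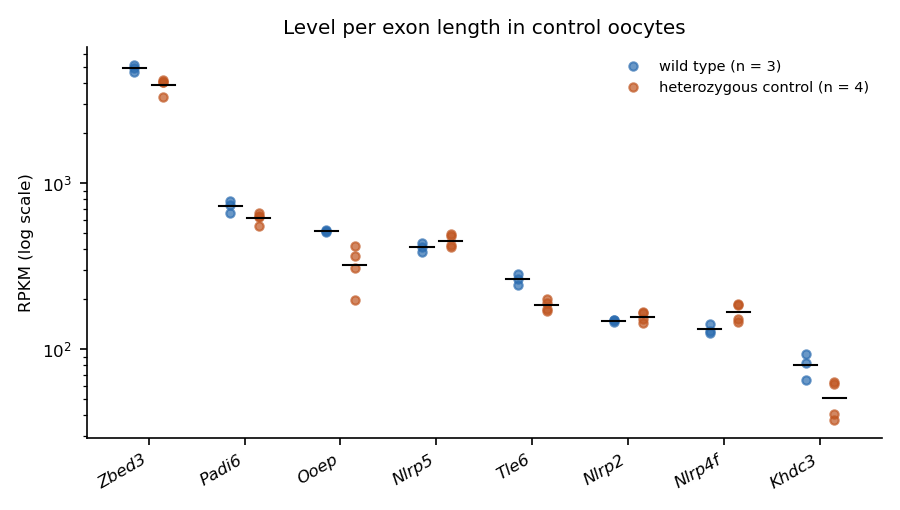
Level of each gene in RPKM on a log scale in the 3 wild type libraries (single-end run) and the 4 heterozygous control libraries (paired-end run). Points are libraries and bars are means. Zbed3 lies at 4929 and 3917 RPKM, far above Padi6 at 728 and 618. Khdc3, whose reads were partly divided with Gm20509, is lowest in both runs.

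Together the 8 messages made up 1.18 to 1.71% of all counted reads in every library. Their summed level was 16040 CPM ± 258 (SD, n = 3) in wild type, 16241 ± 485 (n = 4) in dMT/dMT and 14732 ± 1226 (n = 3) in SOM/SOM. Paired-end libraries gave 13364 ± 801 (n = 4) in the heterozygous controls, 12636 ± 175 (n = 2) in the RNAi mutants and 12941 ± 809 (n = 4) in the double mutants. Zbed3 alone gave 54.7 to 66.8% of the sum. Without Zbed3 the sum was 5920 ± 315 CPM in wild type and 5988 ± 474 in SOM/SOM, and 5323 ± 81.4 in the heterozygous controls and 5319 ± 340 in the double mutants.

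In dMT/dMT oocytes, which lack the main promoter of the short Dicer isoform, the members were close to wild type. In dMT/dMT against wild type 0 of the 8 passed an adjusted p of 0.05 (edgeR quasi-likelihood test, Benjamini-Hochberg over all genes), against 15.4% of the 23151 genes tested. Tle6 alone was under 0.05 unadjusted, and DESeq2 called 0. The median log2 fold change of the members was 0.01, as over all genes tested (0.01), and their median size of change was 0.12, against 0.30 over all genes. Of the genes tested only 8505 had at least 10 CPM, a level all members exceed. Sizes of change here and below are thus not matched by abundance and do not show that the members were unusually stable. All 8 of the 95% intervals lay between 0.736 and 1.29 times the wild type level.

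In SOM/SOM against wild type, where the short isoform is gone altogether, 0 of the 8 passed in the edgeR test, while 28.6% of all genes tested did. Tle6 and Padi6 were under 0.05 unadjusted, and DESeq2 called 0. The median log2 fold change was -0.04 for the members and 0.02 for all genes, and the median size 0.20 against 0.42. The intervals reached from 0.709 to 1.46 times wild type. Between SOM/SOM and dMT/dMT, 0 of the 8 passed with edgeR and with DESeq2, against 7.35% of all genes by edgeR, and Ooep and Padi6 were under 0.05 unadjusted. These 3 comparisons share samples.

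Among paired-end libraries the RNAi mutants against heterozygous controls gave 0 of the 8 in the edgeR test, with 0 under 0.05 unadjusted and 0 by DESeq2, beside 10.7% of the 20989 genes tested. With 2 RNAi libraries the intervals were wide, from 0.535 to 1.55 times the controls. In the double mutants against the same controls 1 of the 8 passed, Tle6, which was lower, beside 21.2% of all genes. The median log2 fold change was -0.10 for the members in both comparisons, against -0.02 and -0.00 over all genes. Between double and RNAi mutants 0 of the 8 passed with edgeR, 0 were under 0.05 unadjusted and DESeq2 called 0, where 0.314% of all genes passed.

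**Figure D2:**
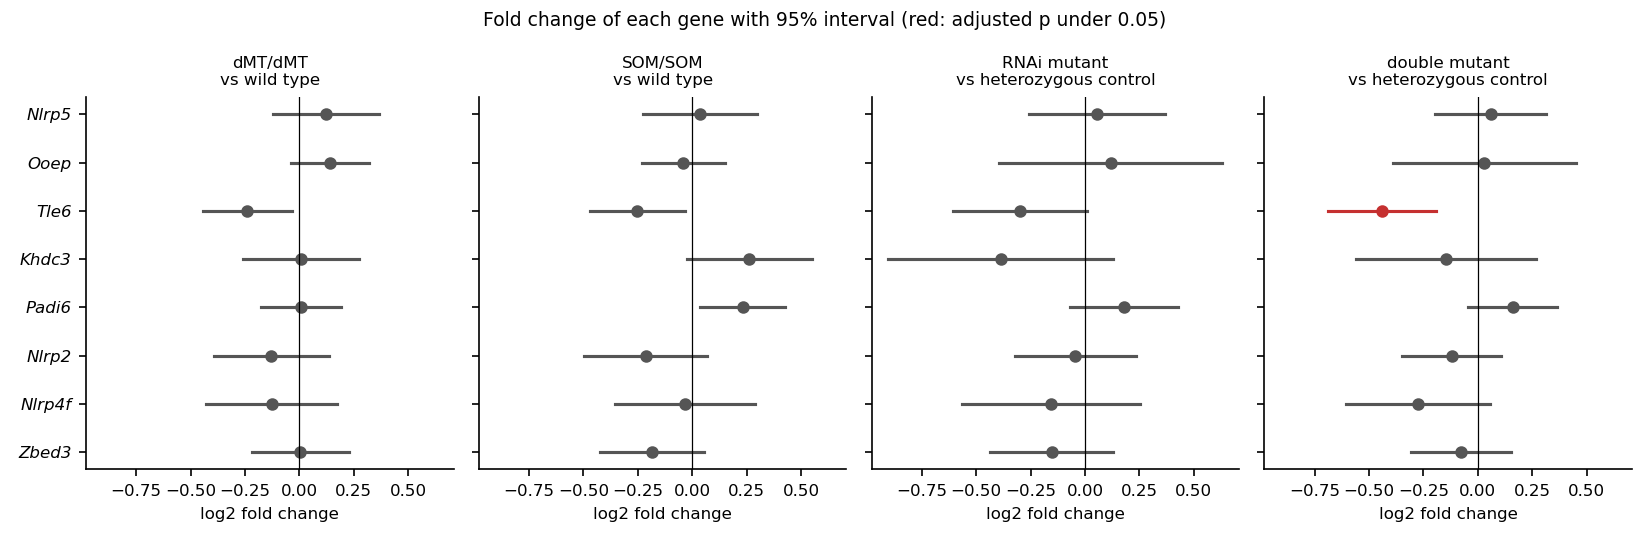
Log2 fold change of each member with its 95% interval in the comparisons with wild type (single-end run) and with heterozygous controls (paired-end run). The red point is Tle6 in the double mutants at -0.44, the only one past an adjusted p of 0.05, and all others are drawn in grey.

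Tle6 was the member that fell in the double mutants. It encodes the Groucho-related subunit, and its gene lies on the minus strand of chromosome 10 (GRCm38 chr10:81590904-81600900). The 4 heterozygous controls held 426, 373, 362 and 407 CPM, and the double mutants 341, 278, 288 and 250 CPM, so that every double mutant was below every control. The mean was 73.8% of the control mean. The log2 fold change was -0.44 ± 0.12 (SE; adjusted p = 0.0139, edgeR quasi-likelihood test), with an interval from 62.0 to 87.4% of control.

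Both RNAi mutants, at 320 and 315 CPM, were also under the lowest control for Tle6, at 81.1% of the control mean, but this did not pass (log2 -0.30 ± 0.14, adjusted p = 0.230, edgeR). The piRNA mutant library lay inside the control range at 392 CPM. Double and RNAi mutants did not part from each other (log2 -0.14 ± 0.14, adjusted p = 0.9997, edgeR), with an interval from 73.4 to 112% of the RNAi mutants.

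In the single-end run Tle6 stood at 565, 518 and 602 CPM in wild type and at 443, 434 and 514 CPM in SOM/SOM, each of these below the lowest wild type value. The log2 fold change was -0.25 ± 0.10 (adjusted p = 0.0830, edgeR), and without the shallow SOM/SOM replicate 3 it was -0.36 (adjusted p = 0.00746, edgeR). In 16 of 17 alternative analyses Tle6 did not pass in SOM/SOM. In dMT/dMT the values were 468, 452, 475 and 519 CPM, of which only the last reached the wild type range, and the log2 fold change was -0.24 ± 0.09 (adjusted p = 0.111, edgeR). Leaving SOM/SOM replicate 3 out of the shared fit gave -0.24 with an adjusted p of 0.0278 (edgeR). In 15 of 17 alternative analyses Tle6 did not pass in dMT/dMT. SOM/SOM and dMT/dMT differed by -0.01 ± 0.09 on the log2 scale, with an interval from 85.9 to 114%. The dMT/WT library, at 543 CPM, was inside the wild type range.

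The rRNA content of the paired-end libraries moved with some members. Within the libraries with more rRNA, Tle6 in the double mutants was at 75.5% of the controls, and within those with less rRNA at 71.8%. In both sets the 2 double mutants were below the 2 controls, which already follows from every double mutant being below every control. With a term for the set in the model, Tle6 passed in the RNAi mutants as well (log2 -0.40, adjusted p = 0.0439, edgeR). In 20 of 21 alternative analyses it did not pass in the RNAi mutants. The fall in the double mutants did not pass among the younger animals alone (log2 -0.50, adjusted p = 0.103) or among the libraries with less rRNA (-0.44, adjusted p = 0.203), each of which leaves 2 libraries a group. It ranged from -0.52 to -0.38 over 22 alternative analyses and passed in 19 of them.

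**Figure D3:**
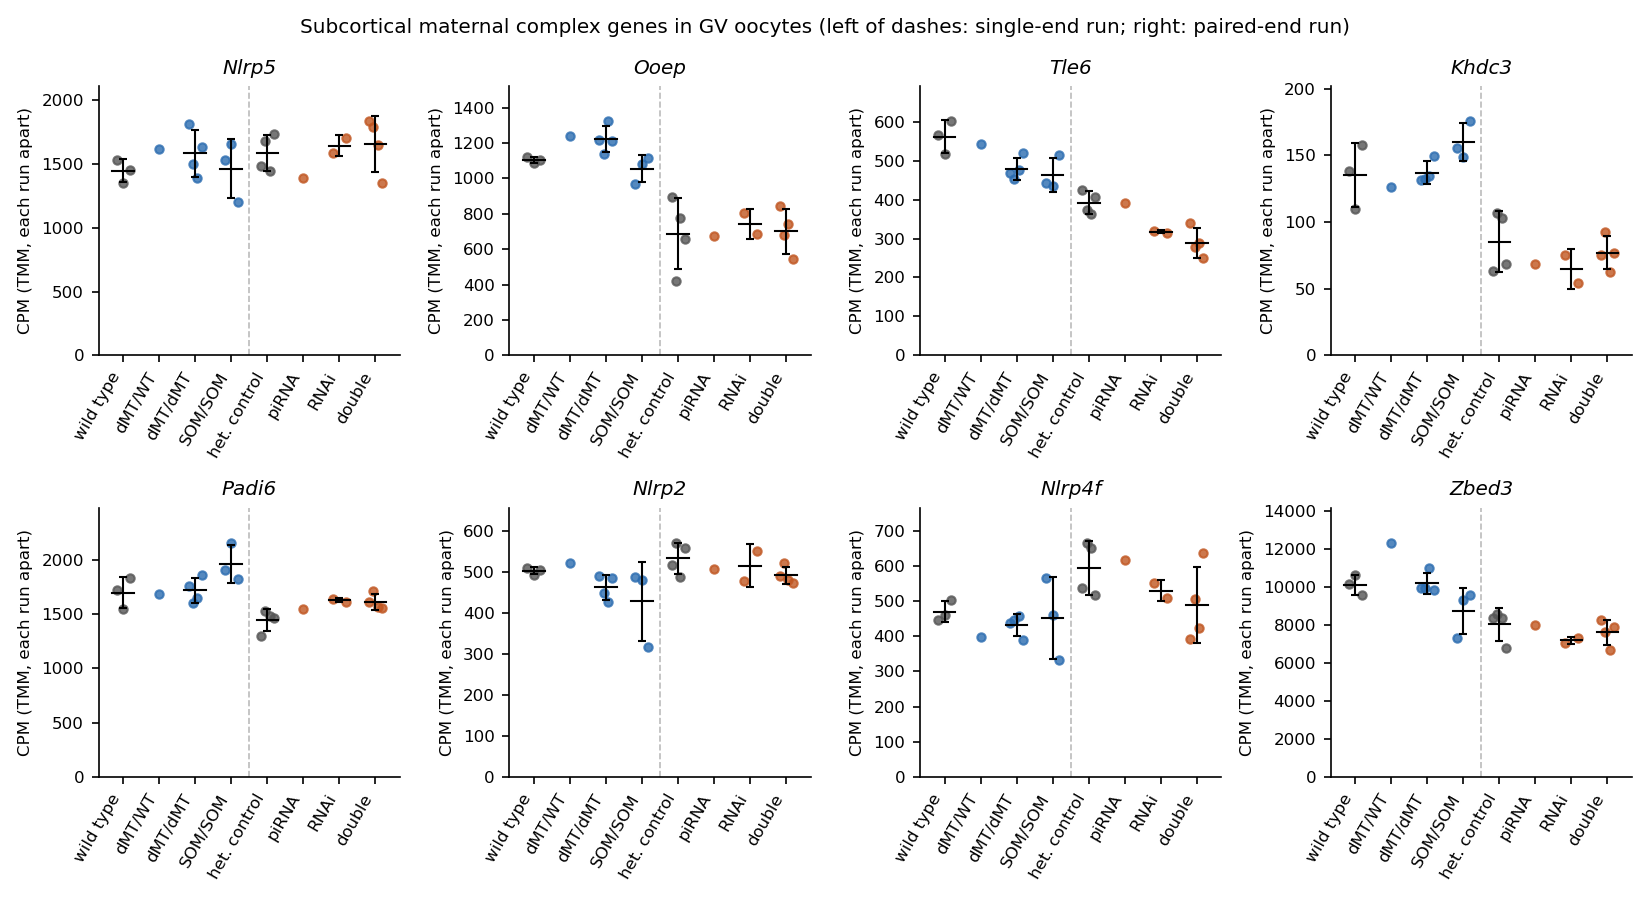
CPM of each member in every library (points), with group mean and SD in black where a group has 2 or more libraries. The single-end groups are left of the dashed line and the paired-end groups right of it, and the y axes start at 0. For Tle6 the 4 double mutants lie at 250 to 341 CPM, under the 4 heterozygous controls at 362 to 426.

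Nlrp4f, which belongs to an NLR subfamily expanded in the mouse, did not pass in the double mutants (log2 -0.27 ± 0.15, adjusted p = 0.239, edgeR). Its controls held 538, 666, 651 and 518 CPM and its double mutants 393, 507, 422 and 636, so that the groups overlapped through double mutant replicate 2. The levels also differed by rRNA set, whose part in the result was not tested. Libraries with more rRNA held 518 and 538 CPM in controls and 393 and 422 in double mutants, and those with less rRNA 651 and 666 against 507 and 636. With the set in the model, Nlrp4f passed (log2 -0.29, adjusted p = 0.0437, edgeR), and it also passed without double mutant replicate 2 (-0.43, adjusted p = 0.0366, edgeR). In 19 of 22 alternative analyses it did not pass in the double mutants. Both RNAi mutants, at 551 and 509 CPM, were close to the controls of their own set. Nlrp4f reads may be shared with its relatives, since Nlrp4g matched 57.9% of its transcript at 92.6% identity and Nlrp4a 98.5% at 81.4%.

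**Figure D4:**
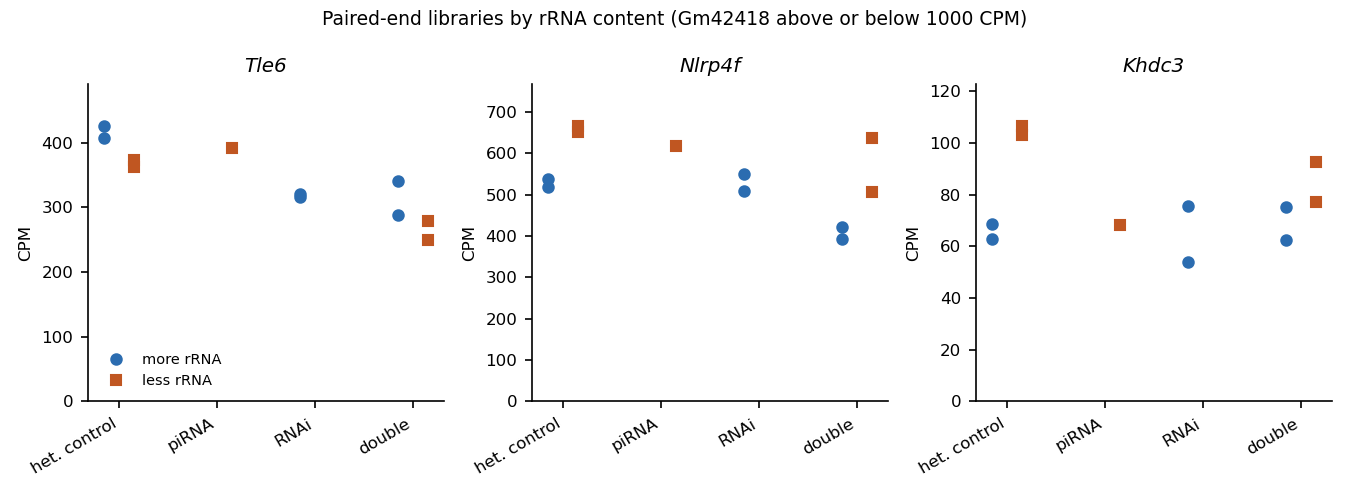
Tle6, Nlrp4f and Khdc3 in the paired-end libraries, in CPM from 0, with circles for the 6 libraries above 1000 CPM of Gm42418 and squares for the 5 below. Tle6 is lower in double mutants within both sets, as every double mutant lies below every control. Nlrp4f and Khdc3 controls part by set (518 to 538 against 651 to 666 CPM, and 62.9 to 68.5 against 103 to 107 CPM).

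Padi6 had the opposite sign to Tle6 in the SOM/SOM, RNAi and double mutant groups, without passing in any. SOM/SOM libraries held 1904, 2159 and 1828 CPM against 1720, 1543 and 1832 in wild type (log2 0.23 ± 0.09, adjusted p = 0.0750, edgeR), and only replicate 3 lay within the wild type range. Of the paired-end libraries, the 4 double mutants held 1556 to 1710 CPM and the RNAi mutants 1613 and 1640, all above the highest control at 1532. The log2 fold changes there were 0.16 ± 0.10 (adjusted p = 0.273, edgeR) and 0.18 ± 0.12 (adjusted p = 0.396). In dMT/dMT Padi6 was at 101% of wild type, with an interval from 88.5 to 114%.

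Nlrp5, the scaffold subunit, gave no change past the test in any comparison, and its groups overlapped in each. In the double mutants it stood at 1656 CPM ± 220 (SD, n = 4) against 1587 ± 144 in the controls, with an interval from 87.3 to 124%. In SOM/SOM it held 1465 ± 233 (n = 3) against 1447 ± 90.3 in wild type, with an interval from 85.6 to 123%. Nlrp5 reads may be shared with its relatives too, since Gm18757 matched 92.4% of its transcript at 85.4% identity and Nlrp5-ps 41.8% at 89.8%.

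Ooep, at 1104 CPM ± 16.3 (n = 3) in wild type, had the lowest coefficient of variation of the members there. The 4 dMT/dMT libraries, at 1140 to 1324 CPM, were all above the highest wild type library at 1119, but the difference did not pass (log2 0.14 ± 0.08, adjusted p = 0.280, edgeR). SOM/SOM libraries, at 968, 1083 and 1113 CPM, lay under all of dMT/dMT (log2 -0.18 ± 0.08, adjusted p = 0.208, edgeR). In the paired-end run Ooep spread widely within groups, from 421 to 894 CPM in the 4 controls and from 542 to 845 in the double mutants. There its interval, from 76.2 to 136% of control in the double mutants, was among the widest of the members.

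Khdc3 did not pass in any comparison. It held 160 CPM ± 14.1 (n = 3) in SOM/SOM against 135 ± 24.2 in wild type, and 64.8 ± 15.1 (n = 2) in RNAi mutants against 85.3 ± 22.8 (n = 4) in the controls. Its controls fell apart by rRNA set, at 62.9 and 68.5 CPM with more rRNA and 103 and 107 CPM with less. Within the set with more rRNA the RNAi mutants were at 98.7% and the double mutants at 105% of the controls. Within the other set the double mutants were at 80.9%, and the piRNA mutant, at 68.1 CPM, at 64.9%. Khdc3 shares 790 exon bases with Gm20509 on the same strand, and reads there were divided between the genes. With Gm20509 added to Khdc3, the log2 fold change in the RNAi mutants was -0.41 in place of -0.39.

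By the ratio of the highest to the lowest library, Nlrp2 and Zbed3 spread least among the members in the paired-end run, with ratios of 1.21 and 1.29 over the 11 libraries. Nlrp2 in the double mutants was at 92.1% of the controls, with an interval from 78.7 to 108%. In SOM/SOM it was at 85.1% of wild type, through replicate 3 at 317 CPM, where the other replicates held 488 and 482 against 494 to 511 in wild type. Zbed3 held 7322, 9341 and 9569 CPM in SOM/SOM, all below the lowest wild type library at 9579 (log2 -0.18 ± 0.11, adjusted p = 0.232, edgeR). In the double mutants it was at 94.8% of the controls, with an interval from 80.8 to 111%.

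Over the 11 libraries of a run, all genotypes together, the standard deviation of log2 CPM was 0.12 to 0.20 for the members in the single-end run, below the median of 0.23 over 8505 genes of at least 10 CPM. In the paired-end run it ran from 0.10 for Nlrp2 to 0.31 for Ooep and Khdc3, around a median of 0.27 over 8160 genes. These medians are not matched by abundance, so they do not show that the members were unusually stable.

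The 2 single libraries were set against the range of their controls. In the dMT/WT library 5 of the 8 members lay outside the wild type range, 4 above and 1 (Nlrp4f, at 397 CPM against 446 to 504) below, where 57.0% of all genes tested lay outside. Zbed3 was the farthest above, at 12352 CPM or 122% of the wild type mean. In the piRNA mutant 2 of the 8 were outside the heterozygous control range, beside 36.4% of all genes. Nlrp5 was below it at 1390 CPM (controls 1445 to 1739) and Padi6 just above at 1543 CPM (controls 1294 to 1532). With 1 library each these have no replicate check.

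Age was compared in the 8 double mutant and control libraries, 2 older (35 to 40 weeks) and 2 younger (10 to 17 weeks) in each genotype. Of the members 0 passed with edgeR, 0 were under 0.05 unadjusted and DESeq2 called 0, and 0% of the 18641 genes tested passed by edgeR (1022 were under 0.05 unadjusted). That count over all genes depended on the setting, since DESeq2 called 50 genes, edgeR without the filter on low counts 150, and edgeR without heterozygous control replicate 3 called 9. Tle6 was at 399 CPM in older and 385 in younger controls, and at 309 and 269 in older and younger double mutants. The intervals for age reached from 0.728 to 1.46 times the younger level. The difference between the age effects of the 2 genotypes gave 0 of 8 with edgeR and 0 under 0.05 unadjusted, beside 0.00536% of all genes, with intervals from 0.490 to 2.49 that leave it undetermined.

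Ooep and Khdc3 belong to a family of KH-domain genes active in oocytes, embryos and stem cells, and some of their relatives behaved otherwise. Of 4 other genes chosen from the family, Khdc1a, Khdc1c and Dppa5a rose in dMT/dMT, SOM/SOM, RNAi mutant and double mutant oocytes alike, and Khdc1b passed in none. Over all genes tested 15.4%, 28.6%, 10.7% and 21.2% passed in these comparisons, in either direction. Dppa5a, a stem cell marker, is the gene next to Ooep, 7932 bases away on chromosome 9 with no gene of the table between them. It held 26.7 to 32.3 CPM in wild type, 127 to 142 in dMT/dMT and 144 to 214 in SOM/SOM, which gave log2 2.16 ± 0.15 for dMT/dMT (adjusted p = 2.45e-05, edgeR) and 2.56 ± 0.15 for SOM/SOM (adjusted p = 1.48e-06). In the double mutants it held 161 to 190 CPM against 42.1 to 83.1 in the controls (log2 1.65 ± 0.18, adjusted p = 2.44e-05, edgeR), and the piRNA mutant held 37.1.

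Khdc1a rose from 355 CPM ± 38.8 (n = 4) in the controls to 964 ± 64.4 (n = 2) in the RNAi mutants and 1216 ± 49.9 (n = 4) in the double mutants (log2 1.78 ± 0.11, adjusted p = 9.69e-08, edgeR). Khdc1c rose from 368 ± 18.5 to 932 ± 101 and 1093 ± 96.5 (log2 1.57 ± 0.10 in the double mutants, adjusted p = 2.17e-07, edgeR). Khdc1b stayed between 1238 and 1679 CPM in the double mutants and 1087 and 1654 in the controls (log2 0.13 ± 0.13, adjusted p = 0.557, edgeR). Against wild type it passed only when SOM/SOM replicate 3, at 583 CPM beside 1032 and 1135 in the other replicates, was left out (log2 0.26, adjusted p = 0.0160). The transcripts of Khdc1a and Khdc1c are 97.5% identical, so their reads cannot be told apart with confidence, and Dppa5a has 4 close copies in the annotation. Their calls held in every alternative analysis, 17 in each comparison with wild type and 21 and 22 in those with the heterozygous controls.

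**Figure D5:**
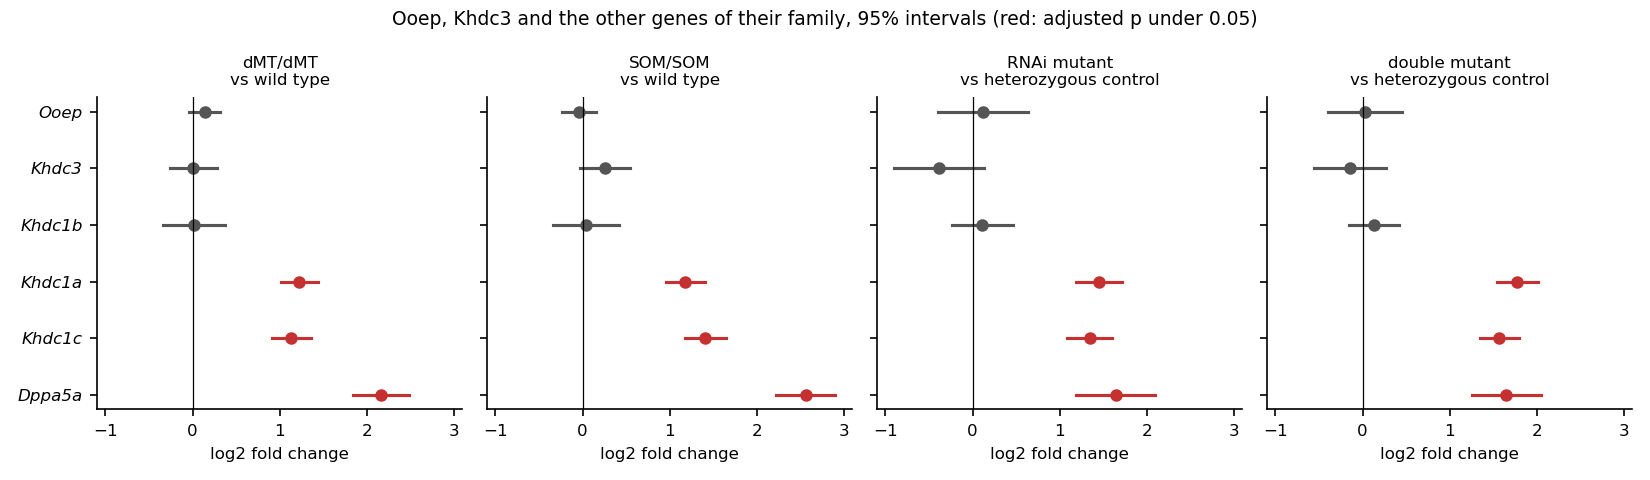
Log2 fold changes with 95% intervals of Ooep, Khdc3 and 4 other genes chosen from the KHDC1 and OOEP family in the same comparisons, with red for an adjusted p under 0.05. Khdc1a, Khdc1c and Dppa5a lie between 1.13 and 2.56 in all of them, while the intervals of Ooep and Khdc3 run from -0.90 to 0.63.

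The other Padi genes were lowly expressed. Of the 4 other Padi genes, 1 rose in SOM/SOM (Padi2, 2.91 to 5.34 CPM) and 1 in the double mutants (Padi3, at 0.978 against 0.0824 CPM), both far below Padi6. Of the 5 other Tle genes tested 2 rose in SOM/SOM and in the double mutants, Tle3 and Tle4, while Tle6 had the opposite sign. Tle4, a transcriptional corepressor, went from 48.9 CPM in wild type to 65.0 in SOM/SOM (log2 0.43 ± 0.11, adjusted p = 0.0163, edgeR) and from 50.9 to 73.8 in the double mutants (0.53 ± 0.17, adjusted p = 0.0369). Tle3 averaged 1.40 CPM ± 1.41 (SD, n = 3) in SOM/SOM, with an SD as large as the mean, and 0.712 ± 0.406 (n = 4) in the double mutants. Of 6 reported partners of the complex (Cfl1, Parp1, Blm, Prkaca, Uhrf1 and Nlrp14), 0 passed with edgeR in any comparison between genotypes. Over all genes tested 15.4% passed in dMT/dMT, 28.6% in SOM/SOM, 10.7% in the RNAi mutants and 21.2% in the double mutants. Lists this short cannot part such counts from these shares.

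Among 11 other maternal-effect genes, 0 passed in dMT/dMT and 0 in the RNAi mutants, beside 15.4% and 10.7% of all genes tested. The shares over all genes were 28.6% in SOM/SOM and 21.2% in the double mutants, which counts in lists this short cannot be parted from. In SOM/SOM against wild type 1 rose (Trim28, log2 0.27 ± 0.07, adjusted p = 0.0144, edgeR) and 1 fell (Zar1, -0.46 ± 0.12, adjusted p = 0.0147). Zar1, an RNA-binding protein of the oocyte, also fell in the double mutants, from 568 to 400 CPM (log2 -0.50 ± 0.15, adjusted p = 0.0260, edgeR), as did Dppa3, the chromatin protein also called Stella, from 1257 to 886 CPM (-0.50 ± 0.14, adjusted p = 0.0215). Of 6 transcription factors of the growing oocyte, Nobox and Sohlh2 rose in SOM/SOM and Sohlh2 in the double mutants. Nobox went from 519 to 685 CPM in SOM/SOM (log2 0.43 ± 0.11, adjusted p = 0.0153, edgeR), and Figla, at 7.33 CPM in wild type and 4.70 in SOM/SOM, did not pass (adjusted p = 0.0717, edgeR). Outside the family of Ooep, these calls were lost in 1 or more of the alternative analyses, except the call of Tle3 in SOM/SOM, where its SD was as large as its mean.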

How the data were processed

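Per the labels and the study's methods, the authors made each library from 25 GV oocytes with the Ovation RNA-seq V2 kit, which does not mark strand, aligned the reads to mm10 (GRCm38) with STAR 2.5.3a, and counted them with featureCounts on GENCODE M15 exons. Reads that mapped to several places or overlapped several genes were divided, so the deposited values are estimated counts that need not be whole. They were rounded to whole numbers here.

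Each run was analysed apart with edgeR 4.0.16 (R 4.3.3): TMM scaling, filterByExpr (minimum count 10), quasi-likelihood F test, Benjamini-Hochberg adjustment over all genes tested, threshold 0.05, and SE from the F statistic. The single-end fit used 10 libraries, without the lone dMT/WT library. The paired-end fit used all 11, and the age fit 8. Intervals are 95%. DESeq2 1.42.0 was an alternative, as were the other settings of the closing section. The scripts were tested on simulated data. Gene IDs were matched to symbols for 52403 of 52636 genes, and Tle7 was unmatched. Close copies were sought with blastn among GENCODE M21 transcripts, and start-site windows are from RefSeq (GRCm38.p6), which matched all 8 members.

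The members and gene lists were chosen with earlier results of these data known. All 8 members are named. From the other lists, counts are given with up to 3 genes per list, those of smallest adjusted p in each direction and those set beside a member.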

Additional observations from a re-analysis of the deposited data

Results flagged for a closer look

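In groups of 4 libraries, 27 sets of values (the 8 members and their sum in the dMT/dMT, double mutant and heterozygous control groups) were checked for a library far from the others by Dixon's criterion, and 2 were found, where chance gives about 1 in 20. Zbed3 was at 11023 CPM in dMT/dMT replicate 3, with the other 3 libraries at 9871 to 9982 CPM. Zbed3 was at 6770 CPM in heterozygous control replicate 3, with the other 3 at 8383 to 8610 CPM. The former library is not the deepest of its group, and the latter has the lowest total of its group, 25550498 reads. The part of depth in this was not tested.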

How the results depend on the processing

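The count of members passing was recomputed in 8 comparisons, together with 64 single-member results under 1104 alternatives, of which 1094 stayed on the same side of the threshold, 7 passed only in the alternative, 3 no longer passed and 0 changed sign with a call. Leaving out one library at a time gave 0 to 1 members in SOM/SOM against wild type and 0 to 1 in dMT/dMT against wild type (in both, Tle6 without SOM/SOM replicate 3), and 1 to 2 in double mutants against controls (Nlrp4f added without double mutant replicate 2). Fitting only the compared groups gave 1 in dMT/dMT (Tle6). A term for the rRNA set gave 1 in the RNAi mutants (Tle6) and 2 in the double mutants (Tle6 and Nlrp4f), and libraries with more rRNA only, an alternative chosen after seeing the data, gave these 2 as well. In the double mutants, 0 passed with a change of at least 0.5, 0 in the younger animals only and 0 in libraries with less rRNA only. DESeq2, RLE size factors, no filter, an age term and adding Gm20509 to Khdc3 (the last chosen after seeing the data) left each of these counts as it was in the comparisons they were run for, the age term in the genotype comparisons of the paired-end run only, and DESeq2 and the addition of Gm20509 in all but the difference of age effects. The median log2 fold change of the members ran from -0.054 to 0.032 in SOM/SOM and from -0.081 to 0.020 in dMT/dMT when libraries were left out. Scaling by total count put the summed level in wild type at 15750 CPM. The causes were not tested.

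Same-numbered libraries deviated together little, with correlations from -0.03 to 0.05 in the single-end and -0.07 to 0.18 in the paired-end run. Differently numbered libraries gave -0.08 to 0.10 and -0.18 to 0.11. With 9 and 6 same-numbered pairs, these weak correlations cannot decide whether the numbers mark a pairing. A replicate block gave 0 members in SOM/SOM, dMT/dMT and RNAi mutants and 1 in the double mutants, as without it.

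Counts over all genes moved by more than 1.5 times as follows. SOM/SOM against dMT/dMT went from 1702 to 2776 with DESeq2 and as low as 899 without one dMT/dMT library. Against wild type dMT/dMT went from 3556 to 2203 without a wild type library. RNAi mutants went from 2247 to 1228 with a replicate block, 1353 in younger animals and 1077 without one RNAi library. Double mutants went from 4447 to 1932 in younger animals and 1488 in libraries with less rRNA. Double against RNAi mutants went from 66 to 170 with DESeq2, 147 without a filter and 24 without RNAi mutant replicate 2, older against younger animals from 0 to 50 with DESeq2, 150 without a filter, 2 with the rRNA set term and 9 without heterozygous control replicate 3, and the difference of age effects from 1 to 105 without a filter and up to 4 without one library.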

Other observations

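The members did not share one profile across libraries. Each member was standardised over the 11 libraries of a run, and the mean of the 8 was compared with all other genes of at least 10 CPM, a description over libraries that share genotype, depth and rRNA content. The closest genes were Zxdc (Pearson r = 0.90), H6pd, Cog6, Rpl22 and Tbc1d9b in the single-end run, out of 8497 genes, and Psap (r = 0.89), Atg2b, Topbp1, Cpsf1 and Hip1r in the paired-end run, out of 8152. No gene was in both lists. The highest of so many correlations over 11 libraries can be high by chance, which was not tested. Between the members themselves, the 28 pairs ran from r = -0.56 (Khdc3 and Zbed3) to 0.79 (Ooep and Zbed3) in the single-end run, with a median of -0.02. In the paired-end run they ran from -0.68 (Tle6 and Padi6) to 0.52 (Khdc3 and Zbed3), with a median of 0.00, and Khdc3 and Zbed3 thus had the opposite sign in the 2 runs.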
